A study of Mus musculus with 6 samples.

Results

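The TRIM (tripartite motif) genes encode a large family of ubiquitin ligases and their close relatives, and 58 of them were read among 19938 tested genes. Members were all genes whose symbol is Trim followed by a number and at most 1 letter, on array probe sets that the platform annotation pairs with 1 symbol. Each of the 58 had a single probe set, so no choice between probe sets was needed. The RefSeq gene table lists 68 such symbols; 8 of the other 10 are annotated here only on probe sets that name several genes, and Trim30c and Trim34b were not analysed here.

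The samples were cultured stromal cells of bone marrow (BMSCs), precursors of bone-forming and fat cells, and they were compared between wild-type mice (WT, 3 arrays) and mice without the microRNA miR-188 (KO188, 3 arrays). All mice were 6 months old on the C57BL/6 background, and all cells were in osteogenic medium. This contained 10% serum, beta-glycerophosphate at 10 mM, ascorbate-2-phosphate at 0.05 mM and the steroid dexamethasone at 100 nM. The labels call the arrays biological replicates without saying whether each had its own mouse or culture, so p-values measure only the spread between these samples. No label names a batch, and for every gene below genotype and a culture difference shared by the KO188 samples cannot be told apart.

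A microRNA pairs through its seed (bases 2 to 8) with target messenger RNAs and lowers them. The mature strands of the missing microRNA, from RefSeq, are shown to name what was removed, with the seed in capitals.
mmu-miR-188-5p: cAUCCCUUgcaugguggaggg
mmu-miR-188-3p: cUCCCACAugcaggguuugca

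A TRIM protein starts with a RING finger, B-box zinc fingers and a coiled coil. The RING binds a ubiquitin-loaded E2 enzyme and passes ubiquitin to a target, the coiled coil pairs 2 chains, and the C-terminal domain chooses the target. In many members that domain is a SPRY (B30.2) fold, which in several antiviral TRIM proteins recognises viral or immune proteins. A subset of TRIM genes is known to be induced by interferon, whereas others serve the cytoskeleton, chromatin or muscle.

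The deposited values are RMA log2 levels, with array medians from 7.43 to 7.50. Pearson's r across tested genes was 0.9988 to 0.9993 between replicates and 0.9909 to 0.9912 between a WT and a KO188 array. Odour and pheromone receptor genes, mostly silent outside sensory tissue, gave a receptor guide: 95% of 1190 such genes had a 6-array mean at or under 6.73. Of the 58 members 44 lay above it, against 69.6% of all tested genes. The probe set of Mir188 did not differ past the test (7.15 ± 0.01 against 7.08 ± 0.05, SD, n = 3 each, limma adjusted p = 0.24); the stretch of the locus that it reads is unknown here, and it therefore checks no label. Of 12 stromal and osteoblast markers 10 lay above the guide, among them Col1a1, Pdgfrb and Vim, with Thy1 just above it. Lepr (5.18 in WT) and Sp7 (6.41 in WT, 6.77 in KO188) had a 6-array mean under it. Of the 12, 9 were higher in KO188, Alpl by 2.08 and Sp7 by 0.36, against 13.3% higher of all tested genes. The summed level of the 12 ranged from 15.60 to 15.61 (log2) in WT and from 15.84 to 15.85 in KO188.

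TRIM members moved in both directions, and the largest changes were rises. By limma at 0.05, with p-values adjusted over every tested gene (Benjamini-Hochberg), 17 of 58 members (29.3%) were higher and 6 (10.3%) were lower in KO188, against backgrounds of 13.3% and 16.5% of all tested genes (29.8% in either direction). Of the 17, 12 rose by at least 0.5 on the log2 scale (20.7% of members, background 2.78%) and 9 by at least 1 (background 1.1%). The median change over the 58 was 0.02, close to the -0.01 of all genes, since most members moved little, and the groups did not overlap in 29 members (background 41.5%). With each array centred on its median the split was 13 higher and 10 lower; the 12 strong rises were among the 13 and the 6 falls among the 10. Over all genes that scaling gave 2007 higher and 4505 lower in place of 2643 and 3294.

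**Figure D1:**
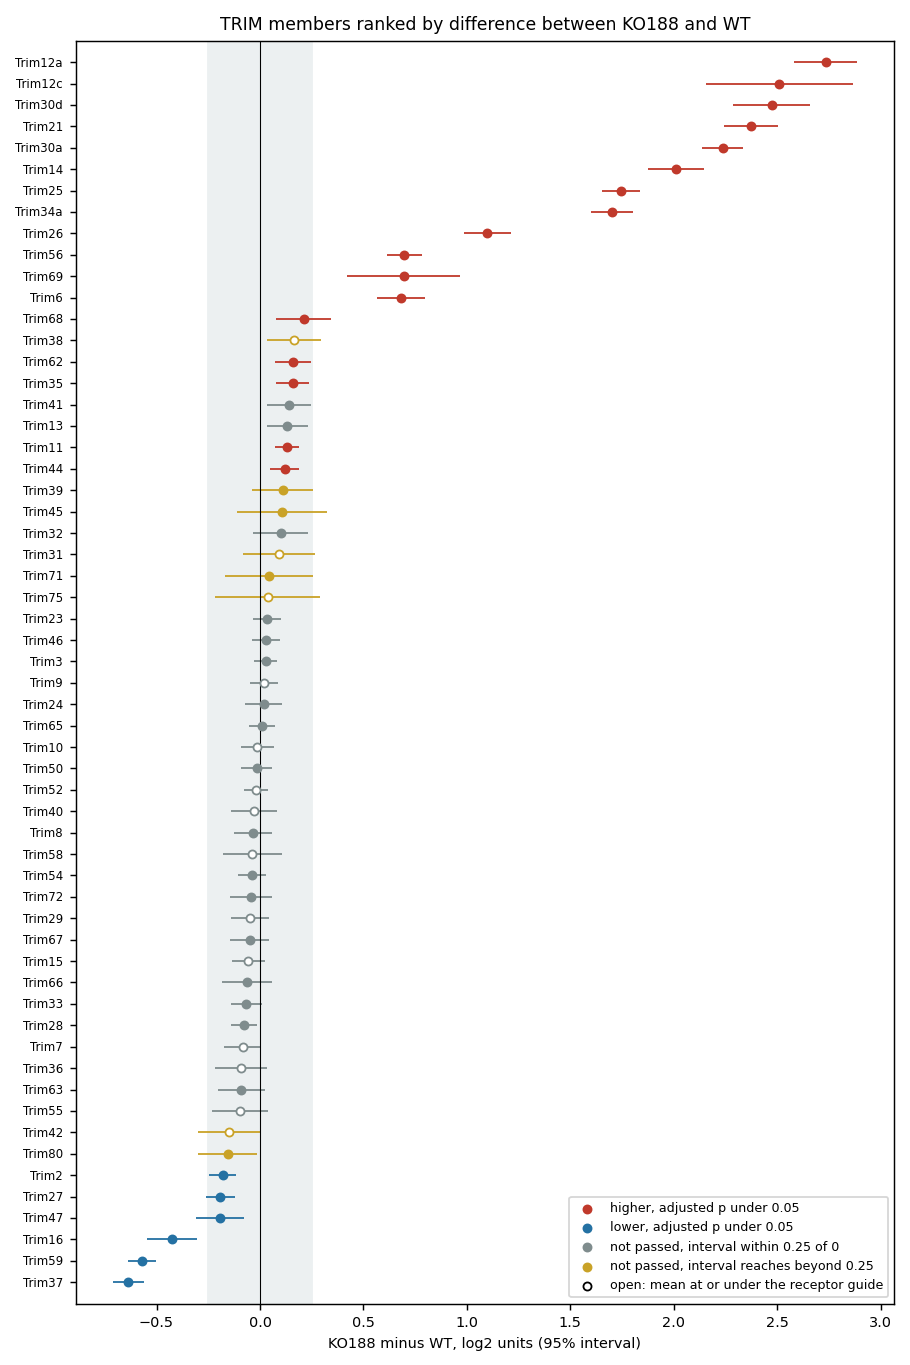
The 58 TRIM genes ranked by KO188 minus WT on the log2 scale, with 95% intervals from limma (n = 3 arrays each). Red points are higher and blue points lower at an adjusted p under 0.05, grey points did not pass and lie within 0.25 of 0 over their whole interval, yellow points did not pass and reach beyond it, and open points have a 6-array mean at or under 6.73. The 12 genes from Trim12a (2.73) to Trim6 (0.68) stand apart from Trim68 (0.21), the next.

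The largest changes lay in mouse relatives of the retroviral restriction factor gene Trim5. Trim12a read 8.08, 8.04 and 7.87 on the WT arrays and 10.65, 10.76 and 10.78 on the KO188 arrays. The groups were far apart, a difference of 2.73 (SE 0.064, limma adjusted p = 7.0e-07) or 6.65-fold. Trim12c read 6.66, 7.21 and 6.98 in WT and 9.48, 9.62 and 9.28 in KO188, a difference of 2.51 (SE 0.148, limma adjusted p = 5.1e-05). WT replicate 1 lay under the receptor guide, where RMA values are compressed, so this rise may be understated. Trim12a and Trim12c are close copies, and a signal shared between them cannot be split here.

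Trim30a encodes a ligase known to limit Toll-like receptor signalling by removing the adaptors Tab2 and Tab3. It read 10.81, 10.96 and 10.91 in WT and 13.12, 13.12 and 13.15 in KO188, a difference of 2.24 (SE 0.042, limma adjusted p = 2.5e-07) or 4.71-fold. Its neighbour and relative Trim30d read 8.36, 8.56 and 8.68 in WT and 11.01 on each of the 3 KO188 arrays. The Trim30d difference was 2.47 (SE 0.078, limma adjusted p = 3.1e-06); its identical KO188 values give an SD of 0 that understates the spread. Trim30a and Trim30d may share signal in the same way.

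Trim34a, a further relative of Trim5, read 7.60, 7.57 and 7.64 in WT and 9.25, 9.38 and 9.29 in KO188. It was 3.25-fold higher (log2 difference 1.70, SE 0.042, limma adjusted p = 9.3e-07). Trim6, whose protein builds free ubiquitin chains that activate the kinase IKK-epsilon, read 6.95, 6.95 and 7.06 in WT and 7.61, 7.75 and 7.65 in KO188. The Trim6 rise of 0.68 (SE 0.048, limma adjusted p = 1.1e-04) was smaller than those of its neighbours, with no overlap between groups.

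Large rises were also read outside that group of relatives. Trim21, the cytosolic antibody receptor, read 8.64, 8.84 and 8.77 in WT and 11.09, 11.17 and 11.11 in KO188, 5.17-fold higher (log2 difference 2.37, SE 0.054, limma adjusted p = 6.7e-07). Trim14, which has no RING and works as an adaptor of the mitochondrial signalling protein Mavs, read 7.39, 7.59 and 7.58 in WT and 9.53 on each KO188 array, a difference of 2.01 (SE 0.057, limma adjusted p = 1.8e-06). Trim25, the ligase known for ubiquitinating the RNA sensor RIG-I, read 9.09, 9.09 and 9.21 in WT and 10.87, 10.89 and 10.86 in KO188, a difference of 1.74 (SE 0.039, limma adjusted p = 5.7e-07). In each of these genes the lowest KO188 array lay at least 1.65 above the highest WT array.

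Trim26, linked to turnover of the transcription factor Irf3, read 8.57, 8.61 and 8.69 in WT and 9.80, 9.67 and 9.71 in KO188, 2.14-fold higher (limma adjusted p = 1.3e-05). Trim56, a ligase tied to the DNA-sensing adaptor STING, read 10.45, 10.37 and 10.48 in WT and 11.11, 11.14 and 11.13 in KO188, 1.62-fold higher (limma adjusted p = 2.5e-05). Trim69, which encodes a microtubule-associated member, read 7.13, 6.65 and 6.89 in WT and 7.59, 7.53 and 7.64 in KO188, 1.62-fold higher (limma adjusted p = 0.0042). The Trim69 WT arrays were the most scattered of these 3 genes (SD 0.24), with WT replicate 2 under the guide. All 12 rises of at least 0.5 passed in every alternative in which the gene was tested, including each fit with an array left out.

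**Figure D2:**
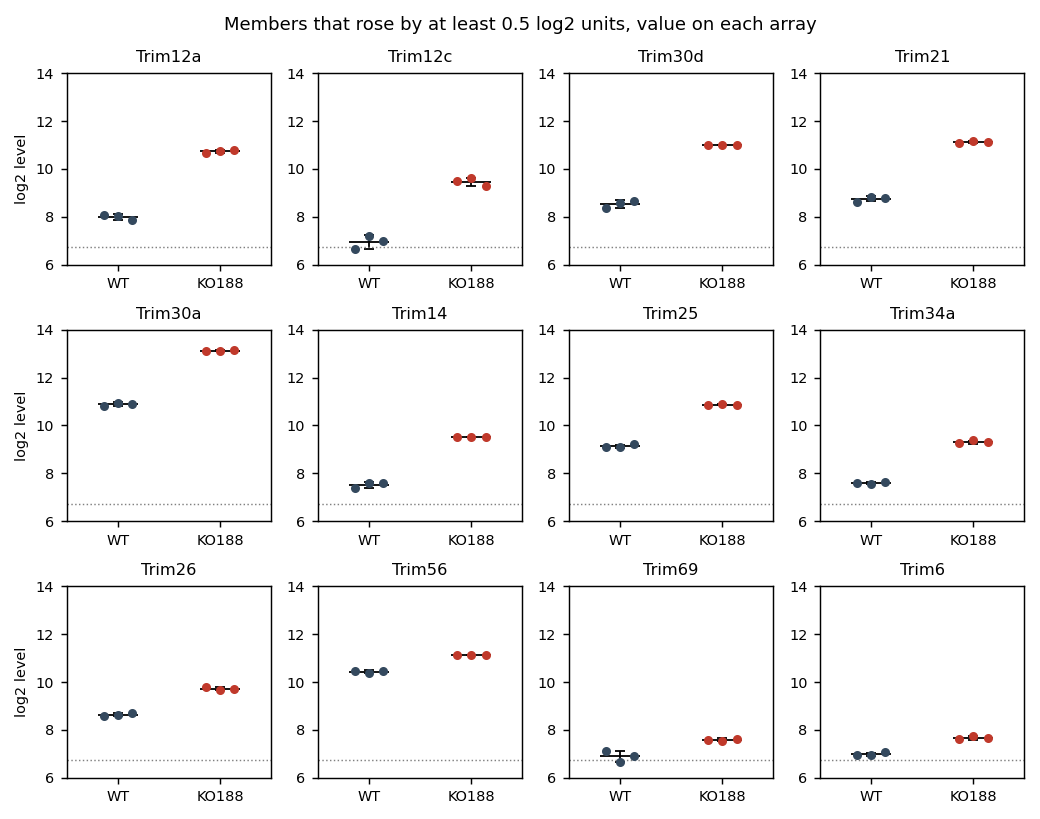
Log2 level of the 12 members that rose by at least 0.5, 1 panel per gene, for each WT (dark) and KO188 (red) array; horizontal marks are means, bars are SD (n = 3), and the dotted line is the receptor guide at 6.73. In each panel all 3 KO188 points lie above all 3 WT points, and WT points of Trim12c and Trim69 reach below the guide.

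A list of 16 TRIM genes known from the literature in general as interferon-linked had 12 measured members. Of these 11 rose (91.7%) and 0 fell, with a median of 1.88. The 46 other members had 6 rises (13.0%), 6 falls (13.0%) and a median of -0.03. The shares of the others lie near the 13.3% higher and 16.5% lower of all tested genes. The list was drawn up with earlier results of these data known. The 1 member of the list that did not pass was Trim38, a regulator of Tab2 and Tab3, which read 5.59, 5.55 and 5.56 in WT and 5.61, 5.82 and 5.77 in KO188 (difference 0.17, limma adjusted p = 0.064). Trim38 lay under the guide in both groups. It passed without KO188 replicate 1 (0.23, adjusted p = 0.0041). Trim69 was the 1 strong rise outside the list.

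Markers of cells that could carry such transcripts were read beside these rises. Of 11 measured macrophage markers 0 passed limma's test (3 at an unadjusted p under 0.05), 7 lay at or under the guide, and their summed level ranged from 10.34 to 10.37 (log2) in WT and from 10.31 to 10.39 in KO188. Csf1r, Adgre1, Lyz2, Itgam and Ptprc, which define macrophages or all leukocytes, were each under the guide in both groups. Above it lay Cd68 (8.39 in WT, 8.54 in KO188), Cd14 (7.85, 7.58), Fcgr1 (7.25, 7.28) and Tyrobp (7.02, 7.03). Cd68 differed by 0.15 and Cd14 by -0.27, neither past the test (limma adjusted p = 0.086 and 0.060). Of 8 dendritic, 9 lymphocyte and 8 granulocyte markers 0 passed limma's test (0, 1 and 0 at an unadjusted p under 0.05); their summed levels ranged from 9.67 to 9.72, 9.41 to 9.44 and 9.27 to 9.34 in WT and from 9.59 to 9.75, 9.30 to 9.45 and 9.30 to 9.36 in KO188. Of 6 endothelial markers Kdr rose by 0.24, with both group means under the guide, and of 6 osteoclast markers Ctsk rose by 0.88. The summed osteoclast level ranged from 9.79 to 9.83 in WT and from 10.12 to 10.25 in KO188. Ctsk alone of the 6 passed, and Acp5, Mmp9, Ocstamp, Dcstamp and Calcr did not. The part of these markers in the TRIM rises was not tested. In these bulk samples, more cells of a type and more RNA per cell cannot be told apart.

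5 further members rose by less than 0.25. Trim68 rose by 0.21, Trim62 by 0.16, Trim35 by 0.16, Trim11 by 0.13 and Trim44, whose protein lacks a RING and resembles a deubiquitinase, by 0.12, with limma adjusted p from 0.0065 to 0.030. Their groups did not overlap; Trim11, for example, read 8.89, 8.87 and 8.89 in WT and 9.03, 9.01 and 9.01 in KO188. Median centring ended the calls of Trim68 (limma adjusted p = 0.054), Trim62 (0.066), Trim11 (0.068) and Trim44 (0.14), and quantile normalization those of Trim68 (0.077) and Trim62 (0.098). Single arrays mattered too: Trim68 was lost when WT array 1 or 3, or KO188 array 1 or 2, was left out (adjusted p = 0.087 to 0.101). Trim62 was lost in the absence of WT array 1 or of KO188 array 1 or 2 (0.050 to 0.056), Trim35 in that of WT array 1 (0.050), and Trim44 in that of WT array 2 or 3 or KO188 array 2 or 3 (0.050 to 0.071). Trim68 (adjusted p = 0.052) and Trim44 (0.069) did not pass with the replicate block either.

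6 members fell, and 2 of them by more than 0.5 (background 1.35%). Trim37, which ubiquitinates the peroxisomal import receptor and restrains centrosome assembly, read 10.39, 10.45 and 10.45 in WT and 9.76, 9.82 and 9.81 in KO188. It fell by 0.64 (SE 0.032, limma adjusted p = 2.3e-05), to 64.3% of the WT level. Trim59, a membrane-anchored member known for its link to proliferation, read 9.96, 9.97 and 10.01 in WT and 9.43, 9.38 and 9.42 in KO188. It fell by 0.57 (SE 0.028, limma adjusted p = 2.3e-05), to 67.4%. In both genes the lowest WT array lay more than 0.5 above the highest KO188 array.

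Trim16, a RING-less member that binds galectins at damaged membranes, read 9.65, 9.75 and 9.82 in WT and 9.37, 9.31 and 9.27 in KO188, a fall of 0.43 (SE 0.050, limma adjusted p = 0.0010). Smaller falls were those of Trim47 (-0.19, adjusted p = 0.024), Trim27 (-0.19, 0.0033), a partner of the MAGE proteins on endosomes, and Trim2 (-0.18, 0.0029), a ligase of neurofilament in neurons, all by limma. Trim27 read 10.38, 10.32 and 10.39 in WT and 10.19, 10.18 and 10.16 in KO188, and Trim2 9.22, 9.23 and 9.27 against 9.08, 9.06 and 9.04. The call of Trim47 was lost without any 1 WT array (adjusted p = 0.056 to 0.087) and with the replicate block (0.067), and the other 5 falls passed in every alternative run.

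**Figure D3:**
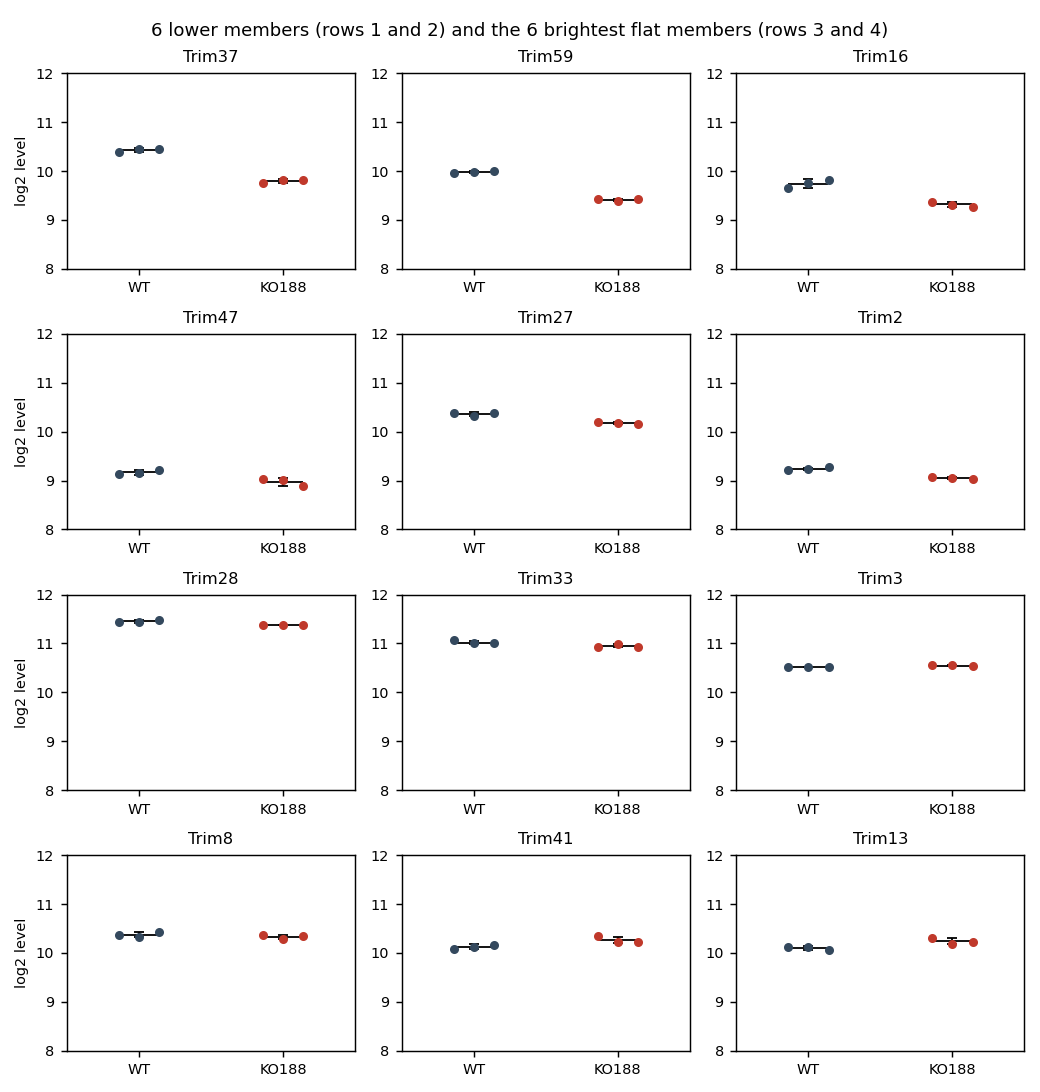
Log2 level on each array of the 6 lower members (upper panels, Trim37 to Trim2) and of the 6 flat members with the highest mean (lower panels, Trim28 to Trim13). Dark points are WT, red points KO188, horizontal marks means and bars SD (n = 3). Trim37 and Trim59 are separated by about 0.6 between groups, whereas Trim3 and Trim8 differ by less than 0.05.

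35 members did not pass. A member was called flat where, in addition, the whole 95% interval of its difference lay within 0.25 of 0, which bounds the change at 1.19-fold; 27 members were flat (46.6%, background 58.4%) and 8 were undetermined. The median size of the difference was 0.05 over the flat members and 0.11 over all 58. Trim3, an NHL-class ligase, read 10.52, 10.51 and 10.52 in WT and 10.55, 10.55 and 10.53 in KO188, with an interval from -0.03 to 0.08. Trim8, known as a partner of SOCS1, read 10.37, 10.32 and 10.42 against 10.37, 10.29 and 10.35, with an interval from -0.12 to 0.06.

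The chromatin members were flat. Trim28, the corepressor that KRAB zinc finger proteins recruit to silence retroelements, read 11.44, 11.43 and 11.48 in WT and 11.38, 11.38 and 11.37 in KO188 (interval -0.14 to -0.02). Trim33, a regulator of Smad4, read 11.06, 11.00 and 11.00 against 10.93, 10.99 and 10.93 (interval -0.14 to 0.01), and Trim24, a nuclear receptor cofactor, differed by 0.02 (interval -0.07 to 0.10). Trim28 lies at the edge of the definition: its groups did not overlap, and it was called lower in 4 alternatives, among them median centring (-0.12, adjusted p = 0.020). Trim33 was also called lower with median centring (-0.11, adjusted p = 0.036).

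Trim41 (10.08, 10.13 and 10.17 against 10.35, 10.23 and 10.23) and the ER-anchored Trim13 (10.13, 10.13 and 10.06 against 10.31, 10.19 and 10.22) also met the definition of flat with intervals that exclude 0, from 0.03 to 0.25 and from 0.03 to 0.23. Each passed as higher in 4 alternatives, quantile normalization among them (adjusted p = 0.025 and 0.038). Well-measured flat members with intervals spanning 0 included Trim23, which carries an ARF GTPase domain (difference 0.03), Trim46, known from the axon initial segment (0.03), Trim65, a ligase of the RNA sensor MDA5 (0.01), and Trim32, mutated in a limb girdle muscular dystrophy (0.10). Of these, Trim65 had the smallest difference, at 8.56, 8.57 and 8.59 in WT and 8.61, 8.57 and 8.57 in KO188. Trim50 (-0.02), Trim66 (-0.06) and Trim67 (-0.05), also flat and above the guide, had intervals that all lay between -0.19 and 0.06.

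14 members had a 6-array mean at or under the receptor guide, and 0 of them passed limma's test (1 at an unadjusted p under 0.05, Trim38). They were Trim7, Trim9, Trim10, Trim15, Trim29, Trim31, Trim36, Trim38, Trim40, Trim42, Trim52, Trim55, Trim58 and Trim75. Several are known from other tissues, such as Trim10 and Trim58 from red cell precursors, Trim9 from neurons, Trim29 from epithelia and Trim42 from testis. At such levels a difference may go unseen, so their 10 flat calls bound only the measured signal. Above the guide, 23 of 44 members passed, 17 higher and 6 lower, against 17.9% higher and 23.1% lower of all tested genes above it.

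The muscle RING finger genes, which drive protein breakdown in muscle fibres, were read at low signal. Trim63 read 7.09, 7.11 and 7.09 in WT and 6.92, 7.01 and 7.09 in KO188, and Trim54 7.45, 7.48 and 7.42 against 7.39, 7.40 and 7.44. The groups met in Trim63 and overlapped in Trim54, with differences of -0.09 and -0.04. Trim72, a membrane repair protein gene of muscle, differed by -0.05. Of 9 skeletal muscle markers 2 fell, Myh1 and Acta1, near the background of 16.5% lower among all tested genes, and 0 rose. Myh1 was dim, averaging 5.95 over the 6 arrays, and no array of it reached the guide. Acta1, well above the guide, changed by -0.23. The summed level of the 9 markers ranged from 10.72 to 10.75 in WT and from 10.60 to 10.69 in KO188. Whether these markers bear on the small TRIM differences was not tested.

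The 8 undetermined members were Trim31, Trim38, Trim39, Trim42, Trim45, Trim71, Trim75 and Trim80. In Trim45 a single array set the difference: it read 7.79, 7.77 and 7.77 in WT and 8.11, 7.77 and 7.77 in KO188, where KO188 replicate 1 alone was high. Trim71, the stem cell gene also called Lin41, read 7.41, 7.48 and 7.55 against 7.37, 7.72 and 7.49, so its groups overlapped. Trim80 differed by -0.16 with an interval from -0.30 to -0.01 (limma adjusted p = 0.10).

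By C-terminal domain, assigned from general knowledge, rises lay mostly in the SPRY class. Of 29 measured SPRY members 15 rose (51.7%), 3 fell (10.3%) and 11 did not pass, against 13.3% higher and 16.5% lower of all tested genes. Their median was 0.16 against -0.01 over all genes. Among the 11 SPRY members on the interferon-linked list 10 rose (90.9%, median 2.01). Among the 18 others 5 rose (27.8%) and 3 fell (16.7%, near the background), with a median of 0.00. Of 8 members of the microtubule-binding COS class 0 passed limma's test (0 at an unadjusted p under 0.05). Of these 8, 7 were flat (87.5%, against 58.4% of all tested genes). However, 4 of the 8 lay at or under the receptor guide, where a difference may go unseen. The 4 PHD-bromodomain members were all flat (1 at an unadjusted p under 0.05), and of the 4 NHL members 1 fell, Trim2. Among 12 members with another or no such domain, Trim56 and Trim44 rose (16.7%) and Trim37 and Trim59 fell (16.7%), shares near the background. The difference between classes was not tested.

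**Figure D4:**
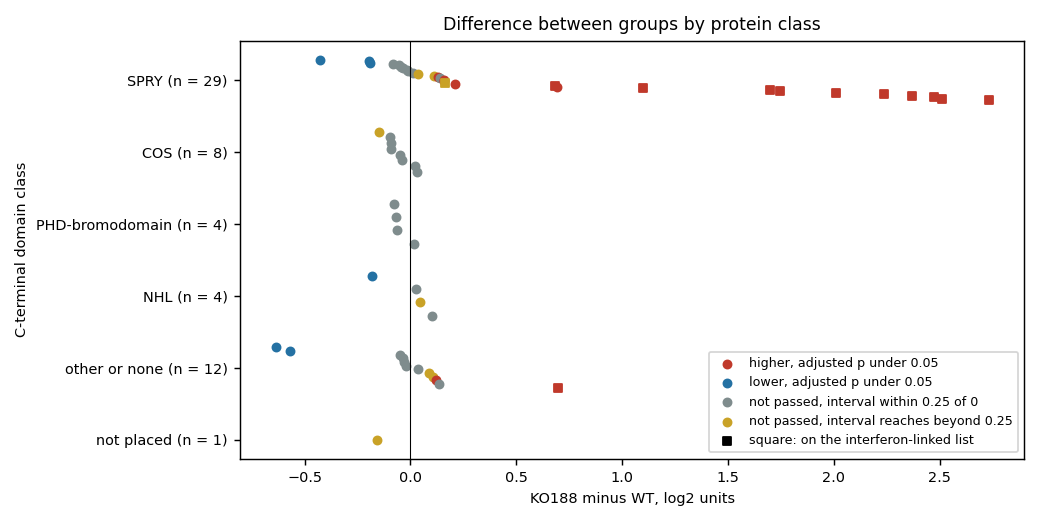
KO188 minus WT (log2 units) of each member, 1 row per C-terminal domain class, coloured by call as in the ranking of all members; squares mark the interferon-linked list. The SPRY row spans -0.43 to 2.73, the COS row -0.15 to 0.03 and the PHD-bromodomain row -0.08 to 0.02.

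In the RefSeq gene order (assembly GRCm38.p6) 10 TRIM genes stand nearly side by side on chromosome 7, with at most 1 other coding gene between neighbours: Trim6, Trim34a, Trim5, Trim12a, Trim34b, Trim12c, Trim30b, Trim30c, Trim30a and Trim30d. Of these 6 were measured and all 6 rose, by 0.68 to 2.73, against 13.3% higher of all tested genes and 17.9% of those above the guide. All 6 are on the interferon-linked list, which was drawn up with earlier results known. Trim12a with Trim12c, and Trim30a with Trim30d, may share signal, so the 6 are not independent observations. The pair Trim21 and Trim68, elsewhere on the same chromosome, rose by 2.37 and 0.21. On chromosome 17, Trim26 rose by 1.10 while the 3 genes that follow it in that order, Trim15 (-0.06), Trim10 (-0.01) and Trim40 (-0.03), were flat, and Trim39 (0.11) and Trim31 (0.09) did not pass; of these 5 only Trim39 lay above the guide.

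**Figure D5:**
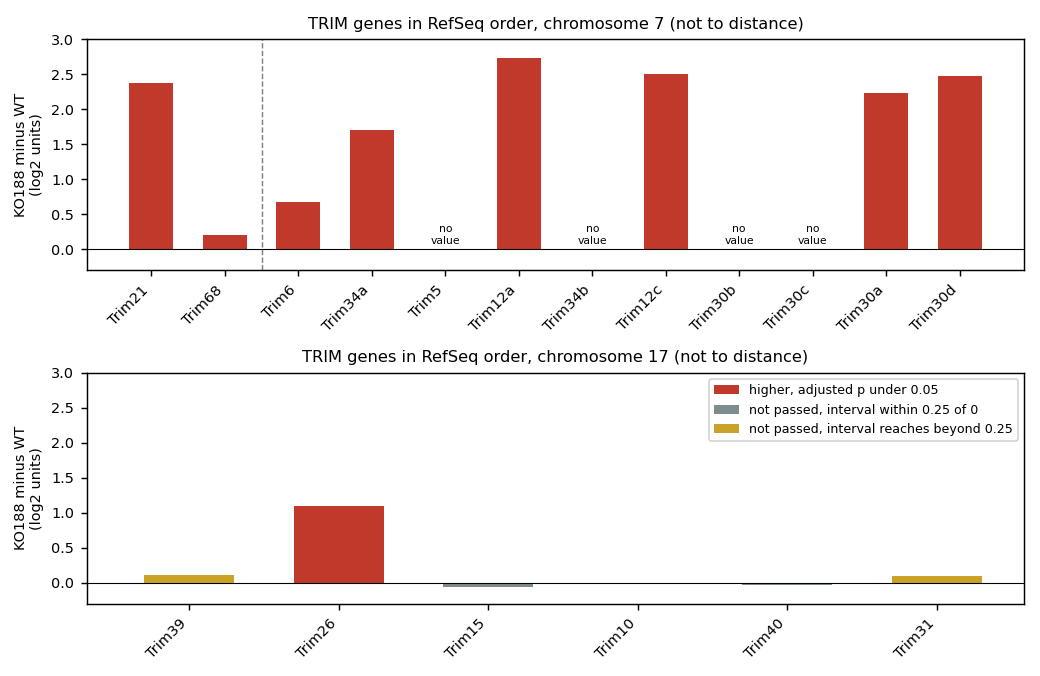
KO188 minus WT (log2 units, bars from 0) of TRIM genes in RefSeq order on chromosome 7 (upper, dashed line between the Trim21 pair and the group of 10) and chromosome 17 (lower), not drawn to distance. Every measured gene of the chromosome 7 group is higher in KO188, and on chromosome 17 only Trim26 is.

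Since several members rose together, their RefSeq promoters (250 bases before to 50 after the start site) were searched on either strand for GAAA, any 2 bases and GAAA again (read as TTTC on the other strand), the core letters of the element that interferon-activated factors bind. A promoter was listed for 46 of the 58 members; Trim14, with a rise of 2.01, was among those not searched. Of 11 listed members that rose by at least 0.5, 7 held the letters (63.6%), against 1 of the 35 others (2.86%), 76 of 415 among all tested genes with such a rise (18.3%) and 3.99% of all genes in the table. The 7 were Trim12a, Trim12c, Trim21, Trim26, Trim30a, Trim30d and Trim34a, and the other was Trim2, which fell. Trim6, Trim25, Trim56 and Trim69 rose without the letters in this window. A match is a description of sequence and was not tested as a binding site.

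The matches of the 7 raised genes are shown with the bases around them. The search fixes every letter of a match but the middle 2, so likeness within the capitals is built in. That of Trim2, which fell, is not shown. Its letters, TTTCCTTTTC, equal the second match in Trim26. Capitals mark the match (2 overlapping matches in Trim21 and Trim26), and each stretch is from GRCm38.p6, read 5′ to 3′ on the gene's strand. Trim30a has 2 listed promoters, both with a match, and the one shown is the more upstream.
Trim12a, chr7:104315466-104315495, minus strand: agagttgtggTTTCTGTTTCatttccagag
Trim12c, chr7:104353350-104353418, minus strand: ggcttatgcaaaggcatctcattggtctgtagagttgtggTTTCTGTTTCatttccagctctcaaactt
Trim30a, chr7:104465194-104465269, minus strand: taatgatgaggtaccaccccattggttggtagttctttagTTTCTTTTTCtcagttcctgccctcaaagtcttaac
Trim30d, chr7:104507850-104507930, minus strand: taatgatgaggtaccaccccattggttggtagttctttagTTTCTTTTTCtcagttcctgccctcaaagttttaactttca
Trim34a, chr7:104244457-104244486, plus strand: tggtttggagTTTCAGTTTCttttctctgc
Trim21, chr7:102565447-102565476, minus strand: ctgagagGAAACTGAAAGTGAAAtttggac
Trim26, chr17:36836946-36837041, plus strand: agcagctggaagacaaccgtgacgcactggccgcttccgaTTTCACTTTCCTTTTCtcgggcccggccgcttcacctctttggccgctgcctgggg

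Over the 30 bases centred on the match, Trim12a and Trim12c shared 28 and Trim30a and Trim30d all 30. These counts include the letters that the search fixes. The match began 29 bases before the annotated start in Trim12c but 10 bases after it in Trim12a, 36 and 41 bases before it in Trim30a and Trim30d, and 160 bases before it in Trim26. The likeness of these pairs in sequence stands beside their like rises (2.73 and 2.51, 2.24 and 2.47), and neither pair is a set of independent observations.

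Of 11 measured family members under other names 2 rose (18.2%), 2 fell (18.2%) and 7 did not pass, with a median of 0.00; these shares lie near the 13.3% higher and 16.5% lower of all tested genes. Pml, which builds the nuclear bodies named after it, rose by 1.37. Mid1 and Mid2, close copies of a microtubule-associated ligase, went opposite ways: Mid1 rose by 0.52 (11.17 to 11.69, limma adjusted p = 3.7e-05) and Mid2 fell by 0.55 (10.13 to 9.58, adjusted p = 4.0e-05). Fsd1 fell by 0.13.

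Genes of the machinery around the TRIM proteins were counted the same way. All measured genes of the next 4 lists lay above the guide, where 17.9% of tested genes were higher and 23.1% lower. Of 17 measured E2 enzyme and E1 genes, 2 rose (11.8%) and 7 fell (41.2%), with a median of -0.08: Ube2l6 (2.73) and Uba7 (1.22) carry the ubiquitin-like protein ISG15, while Uba6 (-0.26) and Ube2d2a (-0.13) serve ubiquitin itself. Ube2n, the E2 enzyme of the chains used in immune signalling, fell by 0.20, and Ube2d3 and Ube2w did not pass (-0.01 and 0.01). Of 13 measured KRAB silencing genes 2 rose (15.4%, near that background) and 5 fell (38.5%), with a median of -0.04, among them the HP1 gene Cbx3 (-0.27), the remodeller Chd3 (-0.23), Hdac2 (-0.26) and Morc3 (0.31); the methyltransferase gene Setdb1 did not pass (0.07).

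Of 8 measured PML body genes 4 rose and 2 fell, the falls at a share near the 23.1% background, with a median of 0.69: Sp100 rose by 2.72, Sp140 by 1.95, Daxx by 1.65 and Pml by 1.37, while the kinase gene Hipk2 fell by 0.35 and Usp7, a deubiquitinase gene, by 0.17. Of 17 measured sensing genes on whose proteins TRIM ligases act, 12 rose (70.6%) and 2 fell (11.8%), with a median of 0.42, against the same 17.9% and 23.1%. Irf7 rose by 3.59, Dhx58 by 3.36, Ifih1, the MDA5 gene, by 2.27 and Ddx58, the RIG-I gene and substrate of Trim25, by 1.45. Tab2, a substrate of the Trim30a protein, rose by 0.14 and Tab3 fell by 0.14, and Mavs, the partner of Trim14, did not pass (-0.05).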

How the data were processed

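Total RNA (6 ug per sample) was labelled with biotin and read on Affymetrix arrays, per the labels' protocols. RMA, Affymetrix Expression Console and Partek appear in the submitters' processing notes, with neither version nor role; no source used here gives a genome build. The authors' deposited log2 values were used as they stand, 1 per probe set (35556) and array. RMA compresses dim signals, and levels of different probe sets were not compared. Of 23410 probe sets in the platform annotation, 21789 name 1 gene; the probe set with the highest 6-array mean stood for each gene. Groups follow the sample titles.

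The comparison of KO188 with WT used R 4.3.3 and limma 3.58.1 (lmFit, then eBayes with no trend, no covariate, all 6 arrays), adjusted over 19938 genes and called at 0.05; the script was tested on simulated data. Intervals are limma's, at 95%. Precision is limited by 3 arrays a group. Per-array values were given for members with changes of at least 0.5, the 6 flat members with the highest mean, and further members chosen after their values were seen. The members and lists were chosen with earlier results of these data known. Alternatives covered array scaling, dim genes, probe sets, variance models, the replicate block and each array left out. Shared replicate numbers were checked: deviations of same-numbered arrays correlated at 0.02, 0.01 and -0.03. No pairing by number was seen, but with 3 arrays a group a weak one could go unseen, and the labels state none. Promoter and gene tables are RefSeq's for GRCm38.p6. Figures used matplotlib 3.10.9 in Python 3.11.15.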

Additional observations from a re-analysis of the deposited data

Results flagged for a closer look

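6 probe sets name several genes, a TRIM gene among them, and were left out of the counts above; 3 of these showed signal above every WT array and passed limma's test over all 35556 probe sets. They are identified by number, since a probe set with several symbols cannot be assigned to 1 gene. Probe set 10601581 lists Trim5 and Trim12c, 10566333 lists these and Trim12a, and 10566350 lists Trim30b and Gm38525. Trim12a and Trim12c are counted above on their own probe sets, so the first 2 may repeat signal already counted. Probe set 10601581 was higher by 2.43 (7.62 ± 0.14 in WT, 10.05 ± 0.04 in KO188, SD, n = 3 each, limma adjusted p = 2.4e-05). Probe set 10566333 was higher by 2.35 (7.68 ± 0.04 and 10.03 ± 0.06, limma adjusted p = 3.3e-06). Probe set 10566350 was higher by 0.38 (5.64 ± 0.01 and 6.02 ± 0.09, limma adjusted p = 0.0047), at levels under the receptor guide of 6.73.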

How the results depend on the processing

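The counts of 17 higher and 6 lower members were recomputed in 15 alternatives. With each array centred on its median 10 members were lower, a move of over 1.5 times, while the median change of all genes was -0.05 in place of -0.01. The flat count of 27 fell to 9 with genes under the 50th percentile left out and to 16 with genes at or under the receptor guide left out, where 33 and 44 members were tested; with limits of 0.15 and 0.5 it was 18 and 35. Leaving out 1 array gave 14 to 16 higher, 5 to 6 lower and 23 to 29 flat members. No pairing by replicate number was seen. With the replicate block 15 were higher, 5 lower and 27 flat, and 5019 of all genes passed in place of 5937. Counts of the 5 lists of related genes stayed within 1.5 times in each alternative, and 0 named members reversed a called direction. The number of arrays, and compression of dim signals for the 14 members at or under the guide, limit what can be seen.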

Other observations

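The KO188 arrays were tighter than the WT arrays in most of the strongly raised members. The SD was smaller in KO188 in 9 of the 12 members that rose by at least 0.5 (75.0%), against 18 of the 46 other members (39.1%), 326 of all 554 genes with such a rise (58.8%) and 42.1% of all tested genes. Trim14 had an SD of 0.115 in WT and 0.003 in KO188, Trim30a 0.075 and 0.015, and Trim25 0.067 and 0.018. Of the 58 members 10 held values within a group that were equal to 5 decimals, and in Trim30d alone all 3 values of a group were; values printed alike here, such as the 9.53 of Trim14, can differ in later decimals. These values were noticed after the data were seen.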
